A study of Mus musculus with 9 samples.

Results

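The genes described here are 9 components of the complement system, C1qa, C1qb, C1qc, C4b, C2, C3, Cfb, Cfp and Serping1. They were taken by their symbols from the 43629 genes listed for the RNA-seq of RAW264.7 cells, a macrophage-like line that came from a mouse tumour induced by Abelson murine leukaemia virus. Total RNA of 9 libraries was sequenced, 3 from untreated cells (Control), 3 from cells given LPS (lipopolysaccharide, a cell wall endotoxin of bacteria) and 3 from cells given LPS with sodium butyrate (LPS+NaBu). Butyrate is a short-chain fatty acid made by gut bacteria and an inhibitor of histone deacetylases. The series' design text describes NaBu as a pretreatment, and cells with NaBu and no LPS were not analysed here, so an effect of NaBu alone and one on LPS-stimulated cells cannot be told apart. All groups are of the same line, which grows without the other cells of a tissue, and separate cultures are not stated, so that the p-values cover the variation among these 9 libraries alone, part of which may be technical.

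Complement is a cascade of plasma proteins that tags microbes and cell debris for uptake and punctures membranes. In the classical pathway the recognition molecule C1q binds antibody or debris and its attached proteases cleave C4 and then C2, and in the alternative pathway factor B, encoded by Cfb, and properdin, encoded by Cfp, build and stabilise the convertase. Both pathways meet at C3, whose fragments coat targets and attract leukocytes. The liver makes most of the plasma pool, and macrophages make many of the components locally.

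Values are normalised counts, that is reads per gene divided by 1 size factor per library, and are not divided by gene length. Recovered reads numbered 37.6 to 64.4 M per library, and log2 values correlated across 14808 genes, which are not independent replicates, at 0.987 to 0.993 within groups and 0.890 to 0.946 between groups. A gene was tested when it reached a normalised count of 10 in at least 3 of the 9 libraries, and differences are of log2(normalised count + 1), which understates changes of low genes, given ± the standard error of limma. Of the 9 complement genes 6 were tested and the 3 C1q genes were not. Cfb passed that minimum only through its LPS libraries and Serping1 only through its LPS+NaBu libraries.

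The macrophage identity of the cells was checked first. All 9 macrophage markers found by symbol, of 10 listed, were tested, and their summed level was 459448 to 476862 in Control, 629960 to 669602 with LPS and 211472 to 229555 with LPS+NaBu, where 8 of the 9 were lower and 1 was higher than with LPS. The higher one, Mertk, reached the minimum for testing only through its LPS+NaBu libraries. In bulk RNA fewer cells of a type and less RNA per cell cannot be told apart. Of the hepatocyte markers none of 7 was tested and Alb, Ttr, Serpina1a and Fga had no read in any library, the summed level being at most 14.5.

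RefSeq promoters on build GRCm38.p6 were at hand for 4 of the 9 genes, C3, Cfp, C1qb and C1qc. Both strands of the 300 bases from 250 before to 50 after the start site were searched for the NF-kB consensus by name, the interferon-stimulated response element core GAAANNGAAA, the gamma-activated site core TTCNNNGAA and the C/EBP core TTGCNNAA, the last being added after the values were seen. Of 32851 promoters of this length 8.46%, 3.44%, 8.30% and 10.8% held the respective motif. Of these, 3 are shown by their 250 bases before the start, 5′ to 3′ on the minus strand, since they hold the matches found or belong to the genes with the highest levels. C3, at chr17:57228137-57228386, rose in both comparisons. Cfp, at chrX:20931556-20931805, was the most abundant component in untreated cells. C1qc, at chr4:136892915-136893164, was almost without reads in every group. Capitals mark a motif found.
C3: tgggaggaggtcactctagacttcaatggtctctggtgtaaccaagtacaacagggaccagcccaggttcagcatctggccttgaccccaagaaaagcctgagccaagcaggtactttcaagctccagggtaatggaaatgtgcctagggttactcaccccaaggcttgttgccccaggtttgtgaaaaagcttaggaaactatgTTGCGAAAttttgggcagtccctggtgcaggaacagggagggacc
Cfp: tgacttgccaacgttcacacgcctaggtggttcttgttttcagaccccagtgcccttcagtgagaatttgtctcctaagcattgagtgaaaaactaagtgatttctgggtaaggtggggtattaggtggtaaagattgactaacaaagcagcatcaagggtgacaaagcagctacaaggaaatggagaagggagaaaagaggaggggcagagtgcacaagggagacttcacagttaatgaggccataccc
C1qc: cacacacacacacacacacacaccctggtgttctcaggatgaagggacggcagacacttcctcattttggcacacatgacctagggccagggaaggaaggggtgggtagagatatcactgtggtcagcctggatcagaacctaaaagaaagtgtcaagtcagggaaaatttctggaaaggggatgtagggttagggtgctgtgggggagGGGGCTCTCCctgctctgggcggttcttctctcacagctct
The C3 promoter held 1 match to the C/EBP core, at -45 to -38 from the start site, the C1qc promoter held 1 match to the NF-kB consensus, at -41 to -32, and the Cfp and C1qb promoters held none of the motifs. A match is a description of the letters and not of a bound factor.

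With LPS against Control 3 of the 6 tested components were called higher (C3, Cfb and Cfp), none was called lower by limma, edgeR or DESeq2 or had an unadjusted limma p under 0.05 in that direction, and C4b, C2 and Serping1 were not called at an adjusted p of 0.05. Among all 14808 genes tested 56.1% were called, 25.2% as higher and 30.8% as lower. With LPS+NaBu against LPS, C3 and Serping1 were higher and Cfb, Cfp and C4b lower, in a background of 78.1% called, 40.2% as higher and 37.8% as lower. Against Control, LPS+NaBu left C3 and Serping1 higher and Cfp and C4b lower, where 76.1% of all genes tested were called, 40.9% as higher and 35.1% as lower. Cfb and Serping1 were tested only because of their LPS and LPS+NaBu libraries, respectively, so their directions follow in part from the minimum for testing. The 3 comparisons share libraries and are not independent of each other. The libraries of the compared groups did not overlap for each of these calls and overlapped for each component not called, in a background of 60.6%, 79.0% and 79.4% of genes with libraries that did not overlap in the 3 comparisons (27.4%, 40.8% and 42.9% above, 33.3%, 38.1% and 36.5% below). The median log2 difference of the 6 was -0.00, -0.84 and 0.41, beside -0.05, 0.02 and 0.09 over all genes tested.

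**Figure D1:**
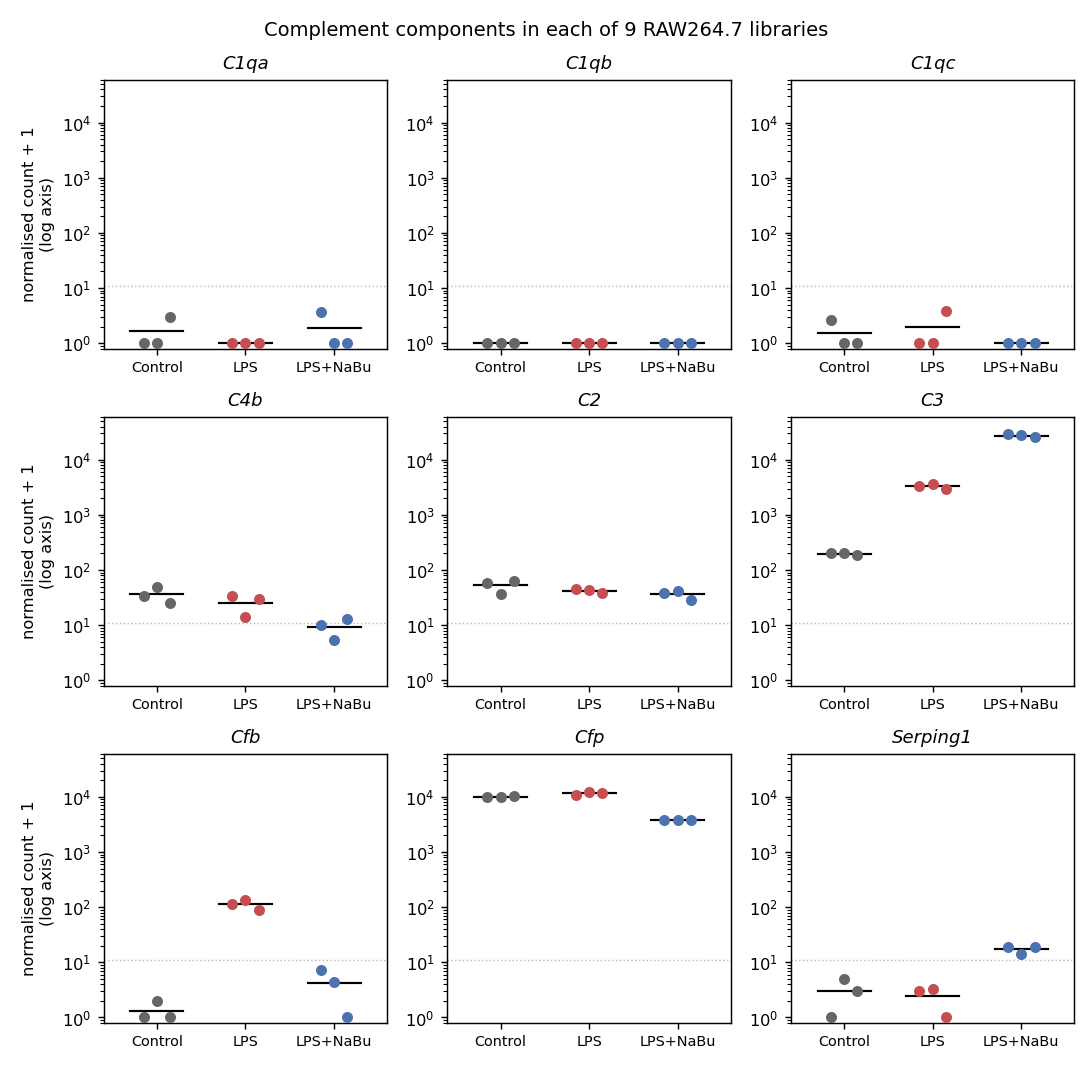
Normalised counts of the 9 complement genes in each library, on a log axis of the normalised count + 1, with Control, LPS and LPS+NaBu side by side, each point being 1 library and each bar a group mean. The dotted line is the minimum of 10 for testing. C3 climbs over both steps to 27464, Cfb stands above the line only with LPS, Serping1 only with LPS+NaBu, and the 3 C1q genes stay under it.

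C3 (ENSMUSG00000024164, 17:57510964-57535155 on the minus strand of GRCm39, 41 exons in its canonical transcript) encodes the protein at which the pathways meet. Its normalised counts were 201, 199 and 190 in the Control libraries, 3310, 3689 and 3008 with LPS and 28931, 27599 and 25861 with LPS+NaBu. No library of a group came near the range of another, and the order was Control, LPS, LPS+NaBu. The mean of 197 ± 5.86 (SD, n = 3) became 3336 ± 341 with LPS, a rise of 4.07 ± 0.07 on the log2 scale (adjusted p = 3.72e-14, limma with Benjamini-Hochberg adjustment), and 27464 ± 1540 with LPS+NaBu, a further rise of 3.04 ± 0.07 over LPS (adjusted p = 4.63e-13, limma). In linear terms C3 was 8.23-fold higher in LPS+NaBu than in LPS and 140-fold higher than in Control. Among 14808 genes the log2 difference ranked 218th from the highest with LPS, 871st with LPS+NaBu against LPS and 36th against Control. C3 was called in all 22 alternative settings in each comparison, the rise over LPS lying between 2.94 and 3.32 on the log2 scale.

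The summed level of listed fibroblast markers moved in the same direction as C3 between LPS and LPS+NaBu. Fibroblasts also make C3, and the summed level of 8 listed markers was 6.36 to 12.1 in Control, 13.0 to 18.8 with LPS and 272 to 296 with LPS+NaBu. Only 4 of them (Col1a1, Pdgfra, Pdgfrb and Thy1) were tested, each of which reached the minimum only through the LPS+NaBu libraries and therefore had to be higher there. Col1a1, a chain of type I collagen, took 141 to 152 of that sum. Col1a2 and Col3a1, which did not reach the minimum, had means of 2.27 and 1.21 with LPS+NaBu and 0.668 and 0 with LPS. Lum had no read in any library and Dcn none with LPS+NaBu. The part of the fibroblast markers in the level of C3 was not tested.

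Cfb (ENSMUSG00000090231, 17:35074852-35081559, minus strand) encodes factor B, the protease of the alternative pathway convertase. Its normalised counts were 0, 1.0 and 0 in Control, 112, 136 and 89.0 with LPS and 6.19, 3.35 and 0 with LPS+NaBu. The gene was thus almost without reads outside the LPS group, where every library exceeded all others. The 291 reads with LPS stood against 1 read in all Control libraries, a ratio of 370 between normalised totals with a 95% counting interval of 65.9 to 14664, and against 12 reads with LPS+NaBu, a ratio of LPS+NaBu to LPS of 0.0305 with an interval of 0.0156 to 0.0542. These intervals cover counting error only. On the log2 scale Cfb rose by 6.47 ± 0.66 with LPS (adjusted p = 2.25e-06, limma) and differed by -5.15 ± 0.66 between LPS+NaBu and LPS (adjusted p = 9.02e-06, limma), which ranked 36th from the lowest of 14808. Cfb reached the minimum for testing only through its LPS libraries. Both directions and the rank therefore follow in part from that minimum. Between LPS+NaBu and Control Cfb did not pass the test, with a log2 difference of 1.32 and a 95% interval of -0.11 to 2.75 (adjusted p = 0.0850, limma). Without LPS+NaBu replicate 3, which had no read, that difference was 2.15 and was called (adjusted p = 0.00369, limma). The size of the log2 differences depended on the setting, from 2.89 to 8.41 for LPS against Control and from -6.27 to -2.52 for LPS+NaBu against LPS, and without any 1 LPS library Cfb fell under the minimum for testing.

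Cfb lies in a crowded stretch of chromosome 17 beside C2, and 21.8% of its exon bases are free of other genes. The elongation factor gene Nelfe, on the opposite strand, shares 49.8% of them, and use of strand in the counting was not given in the sources used here. Nelfe had means of 4930, 4910 and 5873 in Control, LPS and LPS+NaBu, while Cfb had 0 or 1 read in each Control library. Gm20547, a read-through gene over C2 and Cfb on the same strand that shares 65.7% of the Cfb exon bases, was listed at 0 in all 9 libraries. How reads in shared bases were assigned was not given, so this 0 does not tell whether Gm20547 was transcribed. Single markers of other blood cells were also highest with LPS. Of 8 neutrophil markers 2 were tested, S100a8 and Camp, and both were higher with LPS. Camp reached the minimum for testing only through its LPS libraries. Mpo, Ltf, Elane and Ngp, which were not tested, had their highest means with LPS+NaBu, at 8.96, 6.01, 5.28 and 2.12. S100a9 had no read in any library and Ly6g none with LPS. The summed level of the 8 was 20.1 to 30.0 in Control, 117 to 126 with LPS and 47.2 to 59.1 with LPS+NaBu. The summed level of 6 T cell markers, 435 to 486, 1300 to 1474 and 225 to 241 in the same order, was nearly all Lck (means of 456, 1382 and 211), and Cd4, the other one tested, had its highest mean of 17.9 with LPS+NaBu. That of 5 B cell markers, 5.57 to 20.0, 74.9 to 104 and 46.3 to 56.4, was mostly Pax5 with LPS (mean of 86.3), whereas Cd79a and Cd79b were higher with LPS+NaBu, at 21.0 against 4.68 and 21.9 against 1.45 with LPS, and Ms4a1 had no read in any library. Pax5 would not have been tested without its LPS libraries, nor Cd4, Cd79a and Cd79b without their LPS+NaBu libraries. The part of all these markers in the level of Cfb was not tested.

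Cfp (ENSMUSG00000001128, X:20791688-20797794, minus strand) encodes properdin, which stabilises the convertase that factor B helps to form. It had 10021, 10093 and 10323 normalised counts in Control, 10690, 12141 and 11801 with LPS and 3860, 3785 and 3833 with LPS+NaBu. The LPS+NaBu libraries lay well under both other groups, whereas LPS and Control were close. The mean went from 11544 ± 759 with LPS to 3826 ± 37.9 with LPS+NaBu, 3.02-fold lower, a log2 difference of -1.59 ± 0.05 (adjusted p = 5.18e-12, limma), and was 2.65-fold lower than the Control mean of 10146 ± 158. The rise of 0.18 ± 0.05 with LPS (adjusted p = 0.00555, limma) depended on the scaling, since with every library scaled to the same sum it became -0.04 (adjusted p = 0.431) and after quantile normalization -0.04 (adjusted p = 0.521). Judged from mean library sums, that scaling to the same sum shifted log2 differences by about -0.23, 0.28 and 0.05 in the 3 comparisons. It called 2273 genes higher and 7074 lower with LPS against Control, in place of 3739 and 4568. With LPS+NaBu against LPS it called 7417 higher and 4132 lower, in place of 5956 and 5602.

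**Figure D2:**
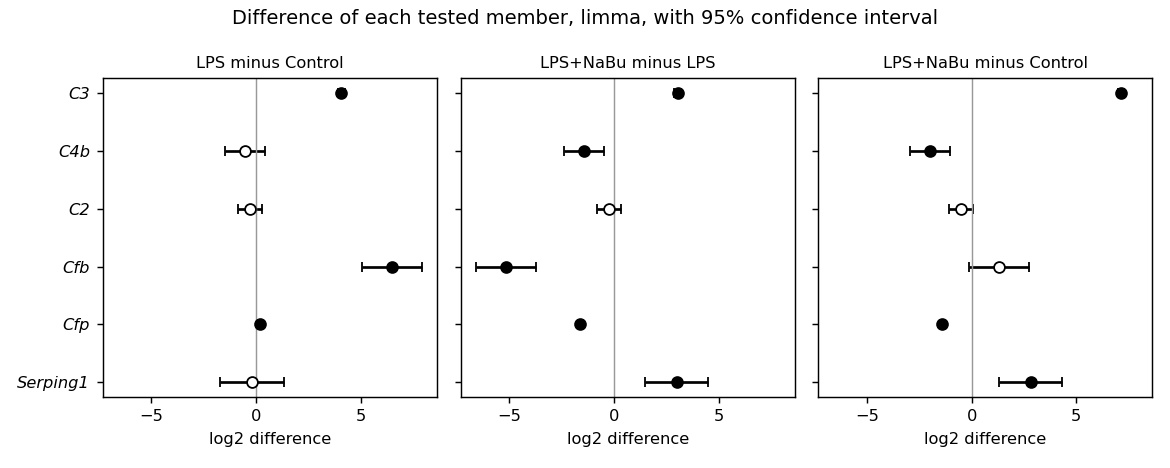
Log2 differences of the 6 tested complement genes in the 3 comparisons, with 95% intervals, filled points being called at an adjusted p under 0.05 and open points not called. C3 is right of 0 in all comparisons, Cfb turns from 6.47 with LPS to -5.15 with LPS+NaBu against LPS, and every interval of C2 crosses 0.

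Per kb of merged exons, which allows genes to be set side by side, properdin mRNA was at 5828 ± 90.6 normalised counts per kb in Control and C3 at 38.0 ± 1.13. With LPS these levels were 6631 ± 436 and 644 ± 65.8. With LPS+NaBu they were 2198 ± 21.8 and 5299 ± 297, so that C3 stood above Cfp in that group and under it in the others. Within each library Cfp was 148 to 162 times C3 per kb in Control and 9.61 to 11.7 times with LPS, and C3 was 2.27 to 2.52 times Cfp with LPS+NaBu. The other components stayed under both in the group means. Cfb was at 32.9 per kb with LPS, C2 at 8.23 to 12 over the group means, C4b at 1.39 to 5.81 and Serping1 at 0.478 to 5.42. The length includes exon bases shared with other genes, and how reads in such bases were assigned was not given. Bases free of other genes make up 21.8% of the exons of Cfb and 57.2% of C2, beside 93.6% of C3 and 84.0% of Cfp. The levels per kb of Cfb and C2 may therefore be understated. That of C2 may be overstated if reads of the opposite strand were counted to it.

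**Figure D3:**
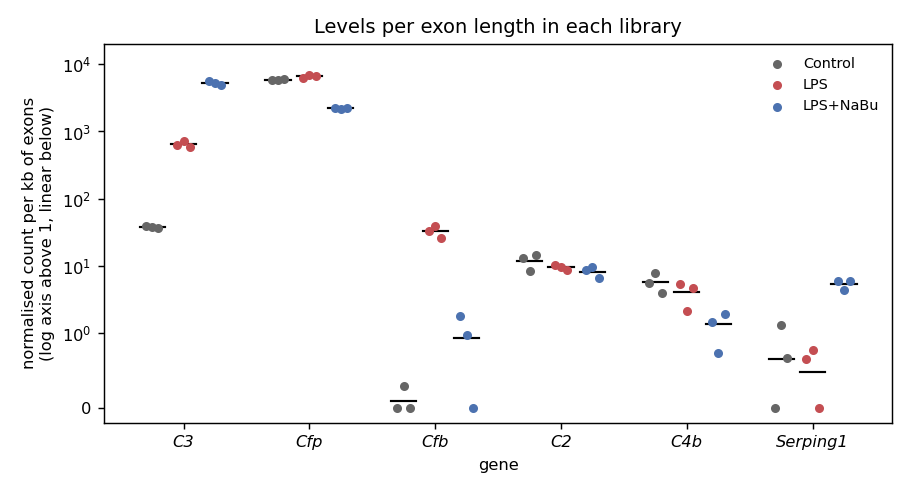
Normalised counts per kb of merged exons for each complement gene and library, on an axis that is logarithmic above 1 and linear below it, with a bar at each group mean. Cfp leads in Control and LPS, and C3 leads with LPS+NaBu at 5299 per kb.

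C4b and C2 encode the substrates of the classical pathway proteases. C4b (ENSMUSG00000073418, 17:34947354-34962912, minus strand) had normalised counts of 33.4, 48.0 and 24.1 in Control, 33.1, 12.9 and 28.2 with LPS and 8.94, 4.46 and 11.8 with LPS+NaBu. Control and LPS libraries overlapped, and all LPS+NaBu libraries were lower than both. With LPS the difference was -0.54 with a 95% interval of -1.49 to 0.42 (adjusted p = 0.327, limma). With LPS+NaBu C4b was lower than with LPS by a log2 difference of -1.44 ± 0.44 (adjusted p = 0.00923, limma) and lower than in Control by -1.98 ± 0.44 (adjusted p = 0.00117, limma). It was called in all 21 settings in which it was tested, at -2.76 to -0.62 for LPS+NaBu against LPS. C4a, a close relative of C4b, contains 8.17% of the windows of 150 bases of C4b, so part of these reads cannot be assigned with certainty. The means of C4a were 11.1, 13.7 and 23.0 in Control, LPS and LPS+NaBu, highest where C4b was lowest. Its log2 difference between LPS+NaBu and LPS, 0.68, was not called (adjusted p = 0.0945, limma). That against Control, 0.97, was called (adjusted p = 0.0249, limma). This call was lost without a low-value filter (adjusted p = 0.0712), after quantile normalization (adjusted p = 0.677) and without Control or LPS+NaBu replicate 1 or 3.

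C2 (ENSMUSG00000024371, 17:35081578-35117241, minus strand) was at 56.5, 36.0 and 62.4 in Control, 44.1, 42.3 and 38.1 with LPS and 37.1, 41.3 and 28.1 with LPS+NaBu. The groups overlapped throughout and no comparison passed the test. The 95% intervals of the log2 difference were -0.84 to 0.30 with LPS, -0.80 to 0.33 with LPS+NaBu against LPS and -1.08 to 0.06 against Control (adjusted p = 0.405, 0.428 and 0.0955, limma). The last difference, -0.51, was called after quantile normalization, at -1.21 (adjusted p = 0.000963), and without Control replicate 2, at -0.74 (adjusted p = 0.0216). Of the exon bases of C2 57.2% are free of other genes. Zbtb12, on the opposite strand, shares 4.43% of the C2 exon bases. Its means were 1144, 855 and 555 in Control, LPS and LPS+NaBu, falling in the same order of groups as those of C2. Use of strand in the counting was not given, and the part of Zbtb12 in the level of C2 was not tested.

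C1qa, C1qb and C1qc encode the chains of C1q and lie side by side on chromosome 4, at 136623223-136626161, 136606009-136613511 and 136616466-136620376 on the minus strand. C1q is a common product of tissue macrophages. C1qb had no read in any of the 9 libraries. C1qa had 2 reads in Control replicate 3 and 4 in LPS+NaBu replicate 1, or 2.01 and 2.75 normalised counts, and no read elsewhere. C1qc had 2 reads in Control replicate 1 and 2 in LPS replicate 3, or 1.59 and 2.82 normalised counts, and no read elsewhere. A library without a read allows a level of up to 3 reads, which is 2.06 to 4.24 normalised counts, so a difference between groups was not detectable at this depth and no fold is given.

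Serping1 (ENSMUSG00000023224, 2:84595705-84620873, minus strand) encodes C1 inhibitor, the serpin that inactivates the proteases bound to C1q. It had 0, 4.0 and 2.01 normalised counts in Control, 2.01, 2.35 and 0 with LPS and 17.9, 13.4 and 18.1 with LPS+NaBu. All LPS+NaBu libraries lay above the others, at a low level. Its 58 reads there compare with 4 with LPS and 6 in Control, and the ratio of normalised totals was 10.7 with a counting interval of 3.98 to 40.7 against LPS and 9.10 with an interval of 3.94 to 25.8 against Control. On the log2 scale the rise was 3.0 ± 0.70 over LPS (adjusted p = 0.00148, limma) and 2.81 ± 0.70 over Control (adjusted p = 0.00249, limma), and LPS against Control gave -0.19 with an interval of -1.71 to 1.32 (adjusted p = 0.839). Serping1 reached the minimum for testing only through its LPS+NaBu libraries, so both rises follow in part from that minimum. Across settings the rise over LPS was 0.99 to 3.46, and without any 1 LPS+NaBu library Serping1 fell under the minimum for testing. The summed fibroblast markers given beside C3 moved with it too, and their part was not tested.

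The rest of the complement system was read from a list of 44 other genes, of which 43 were found and 23 tested. Of the 43, 14 had no read in any library, among them the recognition lectins Mbl1 and Mbl2, the protease Masp1, the terminal components C6, C8a and C8b and the regulators C4bp, Vtn and Cd55, and 6 more had reads but were not tested. With LPS against Control 10 of the 23 were called higher and 3 lower, where 25.2% and 30.8% of all genes tested were. With LPS+NaBu against LPS 8 were higher and 8 lower, shares near the 40.2% and 37.8% of all genes tested, and against Control 13 were higher and 7 lower, beside 40.9% and 35.1%. Their median log2 difference was 0.28, 0.22 and 0.83 in the same order. The 17 genes called with a log2 difference of at least 1 in a comparison, which 14.4%, 37.4% and 34.2% of all genes tested reached in the 3 comparisons, are named with their role below.

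**Figure D4:**
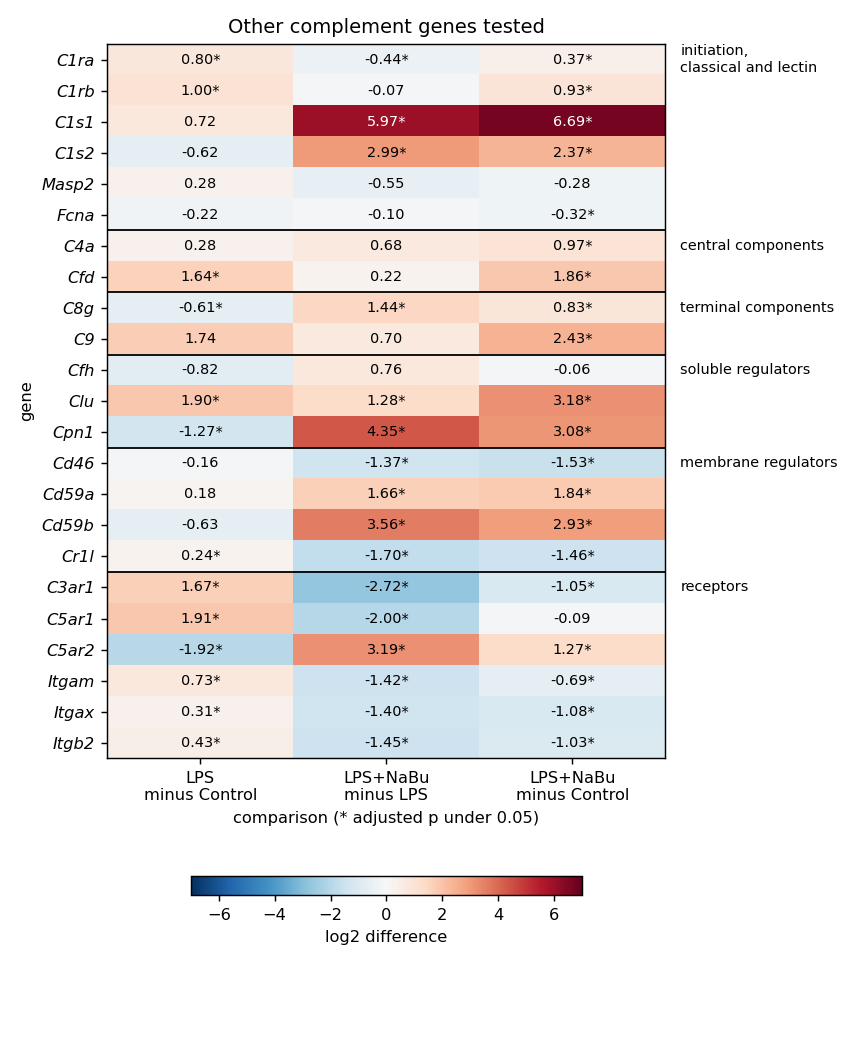
Heat map of the log2 difference of each tested complement gene outside the 9, ordered by role, in the 3 comparisons, with a star where the adjusted p is under 0.05. Of the 6 receptor genes 5 are higher with LPS and 5 lower with LPS+NaBu against LPS, and C1s1 and Cpn1 have the highest values with LPS+NaBu against LPS.

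Of the 6 tested initiating genes 2 were higher and 1 was lower with LPS+NaBu than with LPS, and the former were both C1s genes. C1s1, which encodes the C1s protease that cleaves C4 and C2, had 0, 1.17 and 11.3 normalised counts with LPS and 184, 174 and 202 with LPS+NaBu, a rise of 5.97 ± 0.75 on the log2 scale (adjusted p = 7.72e-06, limma). C1s1 reached the minimum for testing only through its LPS+NaBu libraries. Its copy C1s2 rose by 2.99 ± 0.50 (adjusted p = 9.68e-05, limma), from 8.36 to 63.7. C1s is a target of C1 inhibitor, the product of Serping1, which rose in the same libraries. Of the windows of 150 bases of C1s1 2.89% are also in C1s2. Of the 2 tested central components Cfd, the factor D that activates factor B, was higher with LPS (14.1 against 3.79, log2 difference 1.64, adjusted p = 0.0169, limma), a call lost without Control replicate 2 (adjusted p = 0.0626) or LPS replicate 3 (adjusted p = 0.0765) and after quantile normalization (adjusted p = 0.0602). No Control library of Cfd reached the minimum, and Cfd would not have been tested without its LPS libraries.

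Of the terminal components 2 of 6 were tested. C8g, a chain of the membrane attack complex component C8, had means of 92.5, 59.8 and 164 in Control, LPS and LPS+NaBu, being lower with LPS by a log2 difference of -0.61 (adjusted p = 0.0123, limma; 0.0561 without Control replicate 3) and higher with LPS+NaBu than LPS by 1.44 (adjusted p = 8.41e-06). C9, the pore former, was called in LPS+NaBu against Control, at 14.5 against 3.20, with a log2 difference of 2.43 (adjusted p = 0.0150, limma), a call lost without Control replicate 3 (adjusted p = 0.0721) and after quantile normalization (adjusted p = 0.150). C9 would not have been tested without its LPS+NaBu libraries.

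Of the 3 soluble regulators tested 2 rose between LPS and LPS+NaBu and none fell. Clu, clusterin, which blocks the terminal complex, had means of 285 ± 43.4, 1059 ± 79.3 and 2582 ± 211 in Control, LPS and LPS+NaBu, the same order of groups as C3, with log2 differences of 1.90 with LPS (adjusted p = 5.25e-09, limma) and 1.28 with LPS+NaBu over LPS (adjusted p = 9.94e-08). Cpn1, the carboxypeptidase that trims the anaphylatoxins, was at 22.5, 9.89 and 198, falling by 1.27 on the log2 scale with LPS (adjusted p = 0.00778, limma) and rising by 4.35 with LPS+NaBu over LPS (adjusted p = 8.84e-08).

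Of the 4 membrane regulators tested 2 were higher and 2 lower with LPS+NaBu than with LPS. Cd59a, which blocks assembly of the membrane attack complex, rose from 237 to 729 with LPS+NaBu over LPS (log2 difference 1.66, adjusted p = 3.32e-06, limma), and its copy Cd59b rose from 2.23 to 29.5 (3.56, adjusted p = 0.000311), having reached the minimum for testing only through its LPS+NaBu libraries. Cd59b contains 8.10% of the windows of Cd59a, so part of these reads cannot be assigned with certainty. Cr1l, the Crry protein that controls C3 on the surface of mouse cells, went the other way, from 4159 to 1280 (log2 difference -1.70, adjusted p = 2.65e-12, limma), and Cd46, a cofactor for C3b cleavage, had a log2 difference of -1.37 at means of 22.1 and 9.39 (adjusted p = 0.0344, limma), with libraries that overlapped. This call was lost without LPS replicate 1 (adjusted p = 0.133) or LPS+NaBu replicate 2 (adjusted p = 0.174), without a low-value filter (adjusted p = 0.0620), under the same-sum scaling (adjusted p = 0.0825), in a fit of LPS and LPS+NaBu alone (adjusted p = 0.0657) and without the intensity trend (adjusted p = 0.0686). The call of Cd46 against Control was lost without Control replicate 2 (adjusted p = 0.0564) or LPS+NaBu replicate 2 (adjusted p = 0.0985).

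Of the 6 receptor genes tested 5 were lower with LPS+NaBu than with LPS, where C3 was higher. C3ar1, the receptor for the C3a fragment, had 2981, 2965 and 2795 normalised counts in Control, 9673, 9012 and 9221 with LPS and 1308, 1479 and 1437 with LPS+NaBu. Its libraries did not overlap between groups, and unlike C3 it was lowest with LPS+NaBu, the log2 difference being 1.67 with LPS (adjusted p = 2.67e-11, limma), -2.72 with LPS+NaBu against LPS (adjusted p = 1.61e-13) and -1.05 against Control (adjusted p = 1.17e-09). C5ar1, the receptor for C5a, rose from 445 to 1675 with LPS (1.91, adjusted p = 4.10e-09, limma) and returned to 420 with LPS+NaBu (-2.00 against LPS, adjusted p = 8.72e-10), the difference from Control being -0.09 with a 95% interval of -0.31 to 0.13. C5ar2, the other C5a receptor, took the reverse course at a low level, from 24.2 in Control to 5.85 with LPS (-1.92, adjusted p = 0.00214, limma) and 56.6 with LPS+NaBu (3.19 over LPS, adjusted p = 1.72e-05). Its rise over Control, 1.27 (adjusted p = 0.0181), was lost without Control replicate 1 or LPS+NaBu replicate 1 or 2 (adjusted p = 0.0844, 0.0698 and 0.0508, limma) and after quantile normalization (adjusted p = 0.213).

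Itgam, Itgax and Itgb2 encode the integrin chains of complement receptors CR3 and CR4, which bind the C3 fragments left on targets. Each was lower with LPS+NaBu than with LPS, by log2 differences of -1.42, -1.40 and -1.45 (adjusted p = 2.34e-11, 1.04e-10 and 9.40e-12, limma), with means going from 18678 to 6946, from 11019 to 4193 and from 32729 to 11948. Against Control they were lower as well, by -0.69, -1.08 and -1.03. The rises with LPS were 0.73, 0.31 and 0.43, of which that of Itgax was lost under the same-sum scaling (0.09, adjusted p = 0.200) and, with that of Itgb2, after quantile normalization (adjusted p = 0.275 and 0.240). The macrophage markers, 8 of 9 of which were lower in the same comparison and which include Itgam, moved with the receptors, and their part was not tested.

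The genes whose pattern was most like C3, by Euclidean distance between log2 values centred on the gene mean over the 9 libraries, were Col5a3 (1.06), Gm11843 (1.30) and Shbg (2.0). Their means in Control, LPS and LPS+NaBu were 2.53, 68.8 and 412 for Col5a3, 0, 28.3 and 139 for Gm11843 and 0.530, 11.2 and 119 for Shbg. All have lower levels than C3, and they share its order of groups because they were picked for their likeness to it. Nearest to Cfb were Phf11a (2.0), Pax5 (2.01) and Mmp3 (2.07), with means of 2.27, 379 and 7.15 for Phf11a, 0, 86.3 and 5.92 for Pax5 and 0, 58.3 and 0.917 for Mmp3. That they, like Cfb, were high only in the LPS group follows from the same choice. No such list was made for C1qb, which had no read.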

How the data were processed

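RNA-seq of 9 RAW264.7 libraries was analysed from the deposited tables. The study's methods describe a directional library kit, trimming with Trimmomatic, alignment with HISAT2 and counting of uniquely mapped reads with featureCounts, whereas STAR 2.7.7a, DESeq2 and mm39 stand in the submitters' processing notes. Use of strand in the counting was not given in the sources used here. The deposited signal, called FPKM by the authors, was found to be gene counts divided by 1 size factor per library. Dividing by the value of 1 read gave whole reads within 0.001 for 100% of values, although in 3 libraries that value lies within 1% of 1, where the test says little.

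The 14808 genes that reached a normalised count of 10 in 3 or more of the 9 libraries were put through limma 3.58.1 (R 4.3.3) on log2 values with a pseudocount of 1, as a mean per group over 9 libraries and an intensity trend. Tests were two-sided, p-values were adjusted over all these genes by the Benjamini-Hochberg procedure, and an adjusted p under 0.05 was a call. The recovered reads were tested as alternatives with edgeR 4.0.16 and DESeq2 1.42.0. Coordinates are those of GENCODE M39 on GRCm39. The 9 genes and all lists were chosen with earlier results of these data known. Named were all 9 genes, other listed complement genes called with a log2 difference of at least 1, the 3 genes nearest to C3 and to Cfb, and overlapping or copied genes. Alternatives were another filter, pseudocount, scaling, test or set of libraries, and the replicate block.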

Additional observations from a re-analysis of the deposited data

How the results depend on the processing

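Of 396 counts of calls under the alternatives 384 stayed within 1.5 times the reported count. Of 369 log2 differences of single components, taken only where the gene was tested, 357 kept their direction and their side of the threshold. Of 22 settings C2 and C4b were tested in 21, Cfb in 19 and Serping1 in 18. With a minimum of 50 in place of 10, 1 of the 9 complement genes was called higher with LPS+NaBu against LPS and 1 against Control, 1 was called lower against Control, and 8 of the other complement genes were called higher against Control, since fewer genes are tested. With libraries scaled to the same sum 2273 genes were called higher and 7074 lower with LPS against Control, and after quantile normalization 6 of the other complement genes were called higher with LPS+NaBu against Control in place of 13, the cause of which was not tested. Leaving out 1 library in turn gave 2 to 3 complement genes called higher with LPS against Control, 1 to 2 with LPS+NaBu against LPS and 1 to 2 against Control, the lower values coming from Cfb or Serping1 falling under the minimum for testing. Directions reversed for Cfp with LPS against Control, to -0.043 with the same sum and -0.037 after quantile normalization, for C2 with LPS+NaBu against LPS (0.035 with the same sum), for Cfb with LPS+NaBu against Control (-0.36 after quantile normalization) and for Serping1 with LPS against Control (0.31 without Control replicate 2 and 0.36 without LPS replicate 3, within a range of -0.85 to 0.36 over the libraries left out). For Cfb with LPS+NaBu against Control edgeR gave 2.98 (adjusted p = 0.0387) and DESeq2 3.35 (adjusted p = 0.0134), and C2 with LPS+NaBu against LPS was called after quantile normalization, at -0.87 (adjusted p = 0.00867).

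Libraries of the same number did not deviate together, with correlations of -0.044 to 0.020, so the numbers were not taken to pair them. With the replicate number as a block 3 complement genes were called higher with LPS against Control, 2 higher and 3 lower with LPS+NaBu against LPS and 2 higher and 2 lower against Control, each as without the block. The 3 C1q genes, with at most 4 reads in a group, are beyond what this depth can compare.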

Other observations

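Markers of endothelial cells, 6 listed and 4 tested, had a summed level of 1873 to 2013 in Control, 962 to 1022 with LPS and 1141 to 1245 with LPS+NaBu, nearly all of it Vwf (means of 1912, 942 and 1138). With LPS against Control Vwf was called lower, and Pecam1 (20.0 against 5.73) and Cdh5 (19.5 against 1.33) were called higher. Cdh5 would not have been tested without its LPS libraries, so its call follows in part from the minimum for testing. Its LPS mean rests largely on LPS replicate 3, at 36.7. Singled out after the values were seen, C5ar2, C8g and Cpn1 were the 3 of the 17 named complement genes called lower with LPS against Control. All 3 were called higher with LPS+NaBu against LPS, at means of 56.6 against 5.85 for C5ar2, 164 against 59.8 for C8g and 198 against 9.89 for Cpn1. Both comparisons use the same LPS libraries, so genes picked for low values there are favoured to be higher in the other. Of all genes tested 40.2% were called higher with LPS+NaBu against LPS, and the share among genes called lower with LPS was not taken.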
